A study of Brassica napus with 15 samples.

Results

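PSAN and LHCB3 are nuclear genes for proteins of the photosynthetic apparatus, and their transcripts were followed here through germination of rapeseed (*B. napus*). The members are the 3 rows of the processed table that match these genes, out of 101040 coding genes. PSAN has 1 match, BnaC03g50210D (Arabidopsis AT5G64040), and LHCB3 has 2, BnaC09g30700D and BnaC02g44590D (Arabidopsis AT5G54270). Seeds of the winter accessions C129, C033 and C032, of which C129 was the fastest to germinate and C032 the slowest, were sampled dry (0 h after imbibition, hai) and at 2, 12, 36 and 72 hai. They came from self-pollinated field plants and germinated on water in vessels at 20 °C, in the dark according to the labels. Each accession and time point has 1 library, made from the combined RNA of 3 biological replicates with 30 seeds each, which gives 15 libraries and no measured error within an accession. In the analyses below the 3 accessions therefore serve as replicates of a time point. In the comparisons of accessions the time points serve as replicates of an accession.

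Photosystem I and photosystem II are the pigment-protein complexes of the thylakoid membrane that use light to move electrons. Their core subunits are largely encoded in the plastid genome, whereas small subunits and the antenna proteins are encoded in the nucleus and imported. PSAN encodes subunit N of photosystem I, which faces the thylakoid lumen and, in Arabidopsis, takes part in the docking of plastocyanin, the electron donor. LHCB3 encodes a chlorophyll a/b-binding antenna protein, part of the moderately bound antenna trimer of photosystem II. Dry seeds hold no green plastids, and nuclear photosystem genes are known to be transcribed as seedlings green. The study saw cotyledons green in a separate germination assay, on other seeds and under a light and dark cycle, so that greening of the seedlings used for RNA, which germinated in the dark chamber, is not given.

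BnaC03g50210D lies on the minus strand of scaffold LK031837 of the Chalhoub et al. assembly, at positions 1354850 to 1355911, and has 3 exons with 862 bases in all. BnaC09g30700D lies on the plus strand of scaffold LK032084 at 359164 to 360320, with 4 exons and 894 bases. BnaC02g44590D lies on the plus strand of scaffold LK033070 at 23792 to 25607, with 4 exons and 1554 bases, so that its transcript model is longer than that of the other LHCB3 copy. The names of the genes place them on chromosomes of the C subgenome. Each of the 3 genes faces a neighbour across its 3′ end, BnaC03g50220D at a distance of 119 bases, BnaC09g30710D at 132 bases and BnaC02g44600D at 77 bases. Without strand information, reads running past a gene's end could not be assigned to their strand, so the neighbours' levels are given with the results. Rapeseed carries further copies of many genes; copies of PSAN and LHCB3 that the annotation at hand does not name were not analysed here, and reads that fit several near-identical copies may have been split among them.

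RNA levels are in TPM, the read depth of a transcript, and thus a measure per length, scaled to the same total in each library over coding and non-coding genes together. Per library, coding genes held 19.4 M to 41.7 M read equivalents (median 27.5 M), computed from the read depth of each gene. The summed TPM of coding genes lay between 608866 and 904932, the rest being non-coding, and was highest in C129 at 36 hai. In whole seeds and seedlings, fewer cells that hold a transcript and less of it per cell cannot be told apart. Transcripts of the 6 seed reserve genes followed here as a check of the tissue (oleosins, napin storage proteins and a sucrose synthase) summed to 96.4 to 137 TPM in dry seeds. The sum ranged between 96.9 and 198 TPM at 2 hai, 19.8 and 79.0 TPM at 12 hai, 0.577 and 15.7 TPM at 36 hai and 0.102 and 1.09 TPM at 72 hai.

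PSAN RNA was at or near 0 in the seed and appeared in the seedling. Dry seeds of C129, C033 and C032 had 0 TPM of BnaC03g50210D each. At 2 hai C033 had 0.217 TPM, and C129 and C032 had 0. At 12 hai the transcript was at 0 in all 3 accessions. The zeros of these 8 libraries allow at most 0.119 to 0.182 TPM, the level that 3 reads would give. At 36 hai C129 had 1.80 TPM, C033 had 0.581 TPM and C032 had 0.354 TPM, so that the order followed that of germination speed. These values rest on 46.4 read equivalents in C129, 10.5 in C033 and 7.32 in C032. At 72 hai C129 had 24.4 TPM, C033 had 21.4 TPM and C032 had 19.6 TPM, a mean of 21.8 ± 2.44 TPM (SD, n = 3). Libraries at 72 hai lay far above all others, and the highest accession exceeded the lowest by 1.25 times. At that time PSAN RNA was above 91.1 to 93.8% of coding genes.

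**Figure D1:**
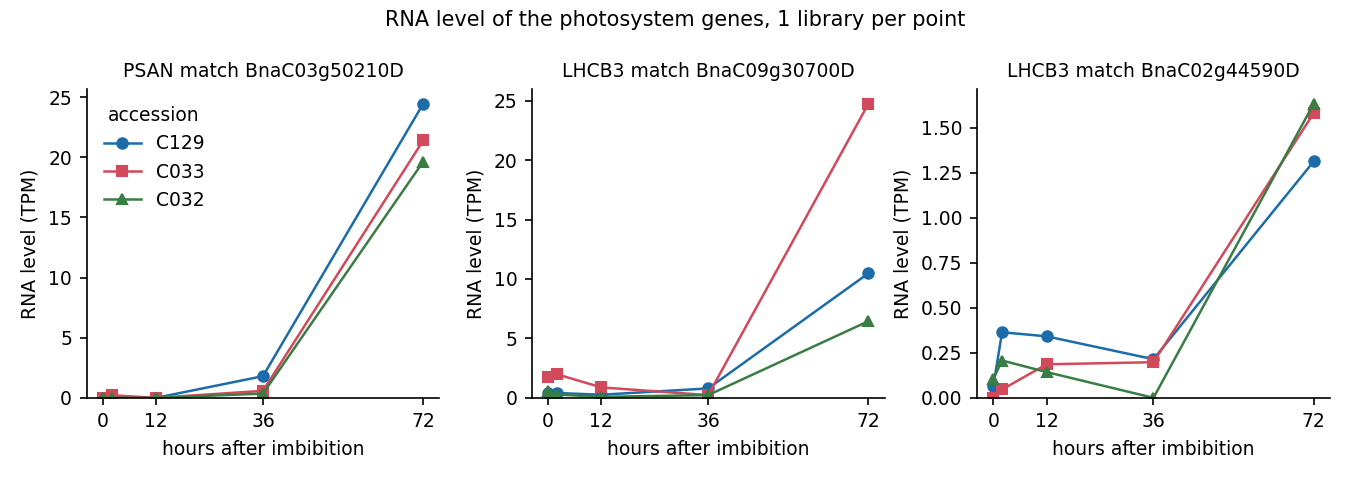
RNA level in TPM of the PSAN match BnaC03g50210D and the LHCB3 matches BnaC09g30700D and BnaC02g44590D against hours after imbibition. Each point is 1 library, lines join the libraries of an accession, and the vertical axes differ between panels. All 3 genes were highest at 72 hai, PSAN at 19.6 to 24.4 TPM, BnaC09g30700D at 6.45 to 24.8 TPM and BnaC02g44590D at 1.31 to 1.63 TPM.

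LHCB3 RNA from BnaC09g30700D was seen in all 15 libraries, dry seeds included. C129 had 0.425, 0.409, 0.261, 0.792 and 10.5 TPM at 0, 2, 12, 36 and 72 hai. C033 had 1.77, 1.98, 0.877, 0.230 and 24.8 TPM at the same times. C032 had 0.582, 0.277, 0.0859, 0.229 and 6.45 TPM. The transcript was low up to 36 hai in each accession and high at 72 hai, with C033 above the other accessions at 0, 2, 12 and 72 hai but not at 36 hai. At 72 hai the mean was 13.9 ± 9.62 TPM (SD, n = 3) and C033 exceeded C032 by 3.84 times, a wider spread than that of PSAN. The levels at 72 hai rest on 158 to 585 read equivalents, those up to 12 hai on at most 75.0, and those at 36 hai on 4.31 to 21.1.

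The other LHCB3 copy, BnaC02g44590D, stayed faint throughout. C129 had 0.0633, 0.365, 0.342, 0.215 and 1.31 TPM at 0, 2, 12, 36 and 72 hai. C033 had 0, 0.0464, 0.186, 0.198 and 1.58 TPM. C032 had 0.103, 0.207, 0.143, 0 and 1.63 TPM. Its levels reached 1 TPM only at 72 hai, where they averaged 1.51 ± 0.172 TPM (SD, n = 3) from 63.2 to 69.6 read equivalents. It passed the minimum of the test below through these libraries alone, so that their place above all earlier times is no separate result. The highest accession exceeded the lowest by 1.24 times at 72 hai, and the order of the accessions differed from that of both other genes.

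The main rise came from 36 to 72 hai. PSAN RNA was 13.6 times as high at 72 hai as at 36 hai in C129, 36.8 times in C033 and 55.5 times in C032. BnaC09g30700D had ratios of 13.2 (C129), 108 (C033) and 28.2 (C032). For BnaC02g44590D it was 6.12 in C129 and 7.99 in C033, and in C032, where the transcript was at 0 at 36 hai, the level was at least 20.3-fold higher at 72 hai, with 3 reads per library as the floor. C129 had the smallest ratio and the highest level at 36 hai for all 3 genes. The study's rule, a log2 ratio beyond 1, was thus met in each accession. It was also met, upwards, by 22.5% of coding genes above 0 at both times in C129, 28.2% in C033 and 32.3% in C032. With 1 library per accession and time, differences between these ratios could not be tested.

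The limma test of changes with time used log2(TPM + 1) and had accession as a second term. It covered the 53233 coding genes that reached 1 TPM in 3 libraries or more. Calls needed both a log2 change beyond 1 and a p under 0.05 after Benjamini-Hochberg adjustment. All 3 genes passed the minimum, but none would have done so without the libraries at 72 hai. BnaC02g44590D passed through its 3 libraries at 72 hai alone. PSAN passed through the 72-hai libraries and C129 at 36 hai, and BnaC09g30700D through the 72-hai libraries and C033 at 0 and 2 hai. A high level at 72 hai was thus built into the selection of all 3 genes. Adding 1 TPM understates the change of genes as faint as these.

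At 72 against 36 hai, PSAN rose by 3.65 on the log2 scale (SE 0.21, limma adjusted p 1.876e-08). BnaC09g30700D rose by 3.22 (SE 0.29, limma adjusted p 8.692e-07) and BnaC02g44590D by 1.15 (SE 0.15, limma adjusted p 2.223e-05). The p-value of BnaC02g44590D, which passed the minimum through 72 hai alone, is no independent test of its rise. Those of PSAN and BnaC09g30700D carry part of the same selection. In this step 17.1% of the genes tested were called as risen and 4.82% as fallen. The median change of all genes tested was 0.21, or 0.06 after median-of-ratios scaling, and risen genes made up 78.0% of the calls, against 66.4% with that scaling and 66.7% with all libraries rescaled to 1 total of coding TPM. By size of rise on the log2(TPM + 1) scale PSAN was number 133, BnaC09g30700D number 320 and BnaC02g44590D number 7555 of the 53233 genes. The neighbour of PSAN, BnaC03g50220D, averaged 1.01 ± 0.281 TPM at 72 hai and 1.97 ± 1.05 TPM at 36 hai (SD, n = 3 each) and changed by -0.51, below the threshold. BnaC09g30710D, beside the stronger LHCB3 copy, averaged 3.14 ± 0.535 TPM at 72 hai and 2.90 ± 1.43 TPM at 36 hai. BnaC02g44600D, beside the fainter copy, averaged 6.88 ± 1.18 TPM at 72 hai and 3.74 ± 1.45 TPM at 36 hai, a change of 0.76 that was not called. This neighbour was thus more abundant than BnaC02g44590D, and its part in the result for that copy was not tested.

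**Figure D2:**
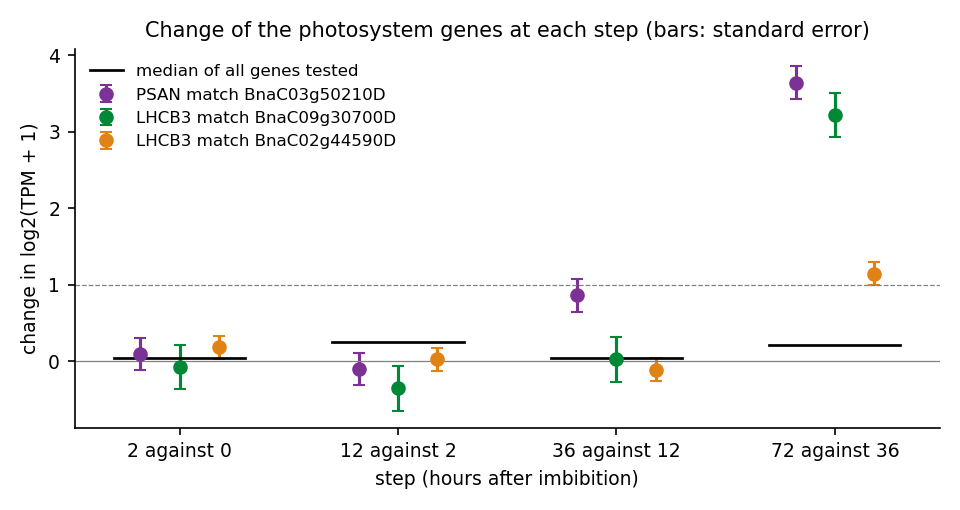
Change in log2(TPM + 1) at each step of the time course for the PSAN match BnaC03g50210D and the LHCB3 matches BnaC09g30700D and BnaC02g44590D, from limma over the 3 accessions. Points are fitted changes, bars standard errors, black lines the median change of all genes tested, and the dashed line the threshold of 1. PSAN and BnaC09g30700D stayed below the threshold up to 36 hai and reached 3.65 and 3.22 in the step to 72 hai.

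None of the 3 genes was called by limma in the earlier steps, and only PSAN at 36 against 12 hai had an unadjusted p under 0.05. At 36 against 12 hai PSAN changed by 0.86 (SE 0.21, limma adjusted p 0.0026), which is below the size required. The level of PSAN at 36 hai was at least 15.1-fold higher than at 12 hai in C129, at least 3.71-fold in C033 and at least 2.62-fold in C032, with 3 reads per library as the floor. The size passed the threshold with a smaller pseudocount, with coding TPM rescaled to 1 total or without C032, and was 0.55 without C129. BnaC09g30700D changed by 0.02 and BnaC02g44590D by -0.11 at 36 against 12 hai, a step in which 18.8% of the genes tested rose and 14% fell. BnaC03g50220D, the neighbour of PSAN, rose in this step by 1.46 (SE 0.19, limma adjusted p 1.124e-05).

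At 12 against 2 hai the changes were -0.09 for PSAN, -0.35 for BnaC09g30700D and 0.03 for BnaC02g44590D, while 13.1% of the genes tested were called in either direction. Risen genes made up 84.1% of those calls, against 51.4% with median-of-ratios scaling. At 2 against 0 hai limma called 1 of all genes tested (0.00188%), and 903 had an unadjusted p under 0.05, none of the 3 genes among them. The step changed PSAN by 0.09, BnaC09g30700D by -0.07 and BnaC02g44590D by 0.19.

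Over the whole course, 72 against 0 hai, PSAN RNA was at least 169-fold higher in C129, at least 126-fold in C033 and at least 112-fold in C032, with 3 reads per library as the floor. BnaC09g30700D was 24.6 times as high in C129, 14.0 times in C033 and 11.1 times in C032. BnaC02g44590D was 15.8 times as high in C032, over 3.17 read equivalents in dry seeds, and at least 16.8-fold higher in C033, whose dry seeds were at 0. No fold is given for C129, whose dry seeds had 2.37 read equivalents, under the floor. On the log2(TPM + 1) scale PSAN rose by 4.51 (SE 0.21), BnaC09g30700D by 2.82 (SE 0.29) and BnaC02g44590D by 1.25 (SE 0.15). The limma adjusted p was 1.976e-10 for PSAN, 5.338e-07 for BnaC09g30700D and 2.269e-06 for BnaC02g44590D. These p-values have the same limit from the selection through 72 hai. Of the genes tested, 41.9% rose and 10.4% fell over this span. Risen genes made up 80.0% of these calls, against 65.0% with median-of-ratios scaling, with which the median change of all genes was 0.26 in place of 0.70.

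The accessions were compared over all 5 times, which stand in as replicates although they are stages of 1 time course. In none of these comparisons did limma call any of the 3 genes, and only BnaC09g30700D had an unadjusted p under 0.05, for C129 against C033 and for C033 against C032. C033 exceeded C032 in BnaC09g30700D by 0.92 (SE 0.22, limma adjusted p 0.0114), just under the size required. C033 was higher in 5 of 5 times, but at 36 hai the levels were nearly equal. They were 0.230 TPM in C033 and 0.229 TPM in C032, on 4.31 and 4.91 read equivalents. The fitted difference over all times was called under 5 of 14 alternative settings. C129 against C033 gave -0.65 for the same gene (SE 0.22, limma adjusted p 0.030), with C129 lower at 4 of 5 times. PSAN differed by 0.15 for C129 against C033, 0.27 for C129 against C032 and 0.13 for C033 against C032, each with an SE of 0.16. BnaC02g44590D differed by 0.10 or less in each comparison. The calls covered 5.95% of the genes tested for C129 against C033, 6.99% for C129 against C032 and 5.43% for C033 against C032. Among the calls for C129 against C033, 71.8% were higher in C129 as deposited, 41.2% with median-of-ratios scaling and 57.8% with coding TPM rescaled. For C129 against C032 the share was 63.9% as deposited and 43.8% with median-of-ratios scaling.

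At 36 hai all 3 genes were highest in C129, as were 75.0% of all genes tested. After coding TPM was rescaled to 1 total, a setting chosen after the data were seen, PSAN and BnaC09g30700D were still highest in C129 and BnaC02g44590D was highest in C033, and the share of all genes was 51.7%. PSAN RNA at 36 hai was 7.37% of its level at 72 hai in C129, 2.72% in C033 and 1.80% in C032. BnaC09g30700D reached 7.56% in C129, 0.929% in C033 and 3.54% in C032. BnaC02g44590D reached 16.3% in C129, 12.5% in C033 and 0% in C032. Over all genes tested, C129 had a median of 95.3% in this measure, C033 one of 76.9% and C032 one of 69.7%, and over the 67 tested nuclear genes of the chloroplast lists below it was 47.1%, 26.5% and 21.1%. Rescaling changed the order over all genes, to 92.5% for C129, 97.8% for C033 and 89.0% for C032, but not that over the nuclear list genes, at 45.8%, 33.7% and 27.0%.

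BnaC09g30700D supplied most of the LHCB3 RNA of the 2 copies in seedlings. At 72 hai it made up 88.9% of the summed TPM of both copies in C129, 94.0% in C033 and 79.8% in C032. In the 9 libraries of 0 to 12 hai its share ranged from 37.5 to 100%, with a median of 82.5%, and rested on a summed level of at most 2.03 TPM. At 12 hai the fainter copy was the higher of the pair in C129 and C032, with 0.342 and 0.143 TPM of BnaC02g44590D beside 0.261 and 0.0859 TPM of BnaC09g30700D. These levels rest on 15.5 and 6.81 read equivalents in C129, and on 5.74 and 1.98 in C032. The median share was 84.3% in the 6 libraries of 36 and 72 hai. The log2 ratio of the copies, with 1 TPM added to each, averaged 1.34 at 36 and 72 hai and 0.51 at 0, 2 and 12 hai. At 36 hai alone C129 had a ratio of 0.56, C033 one of 0.04 and C032 one of 0.30, so that the later average rests on 72 hai. Adding 1 TPM pulls the ratio of faint copies towards 0, and the difference thus follows the rise in level as well as the balance. This difference of 0.83 was not beyond the spread in an exact two-sided permutation test within accessions (p = 0.103, 1000 arrangements, smallest possible p 0.001). It was larger without C033, at 1.02 (exact permutation p = 0.030, smallest possible p 0.01), and smaller with a pseudocount of 0.1 TPM, at 0.57, or of 0.01 TPM, at 0.45. The alternatives other than leaving out C033 gave an exact permutation p between 0.22 and 0.715. A change in the balance of the copies was not shown.

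**Figure D3:**
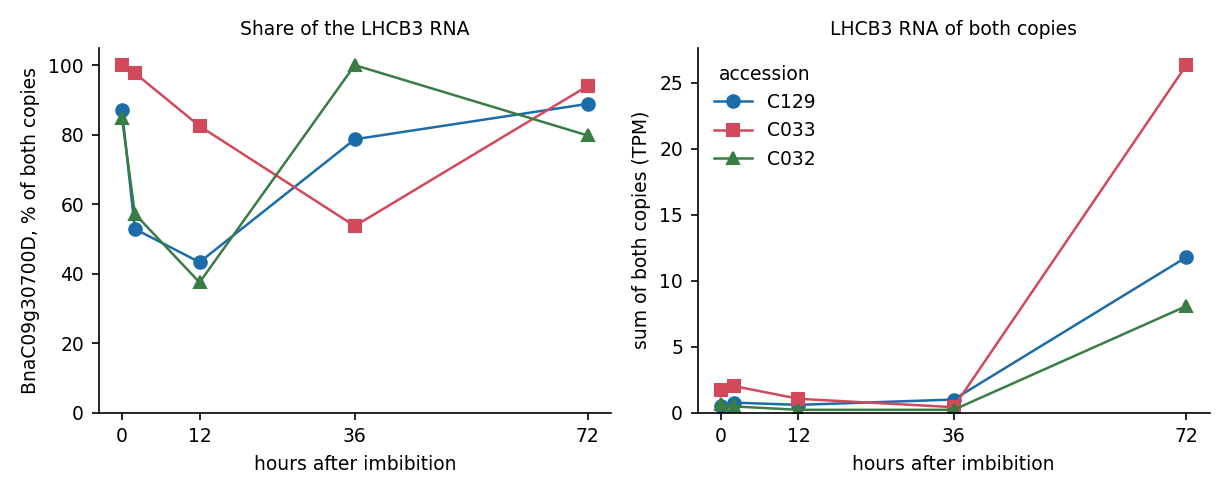
Left, share of BnaC09g30700D in the summed TPM of the LHCB3 copies BnaC09g30700D and BnaC02g44590D, in percent, against hours after imbibition. Right, the sum itself in TPM. Each point is 1 library; at 72 hai the share was 79.8 to 94.0% of a sum of 8.09 to 26.3 TPM, while the shares of 0 to 12 hai stand on sums of at most 2.03 TPM.

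Other nuclear genes of chloroplast development were followed in lists taken from genes that the study had called changed in these libraries, so that their counts do not test how often such genes change. Of 67 nuclear genes tested, out of 71 listed, 54 rose from 36 to 72 hai, where 17.1% of all genes tested did, and 29 rose from 12 to 36 hai, where 18.8% did. On the log2(TPM + 1) scale PSAN changed more in the step to 72 hai than any of the 100 list genes tested, plastid matches included. BnaC09g30700D changed more than all but 1, whereas 82 changed more than BnaC02g44590D. Adding 1 TPM understates the change of genes as faint as BnaC02g44590D. Its change was 2.93 with a pseudocount of 0.1 TPM and 4.29 with 0.01 TPM, and its place among the list genes was not computed with these. The gene ahead of BnaC09g30700D was the FNR1 match BnaA09g08030D. It encodes ferredoxin-NADP+ reductase, which takes electrons from ferredoxin after photosystem I, and rose by 3.61 (SE 0.31), with 27.9 ± 3.89 TPM at 72 hai and 1.43 ± 0.757 TPM at 36 hai (SD, n = 3 each).

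Genes of photosynthetic electron transport and of the blue light receptor PHOT2 were called in the same step as PSAN. All 3 electron transport genes, FNR1 and a pair of matches of NDHN, a subunit of the chloroplast NADH dehydrogenase-like complex, rose from 36 to 72 hai, and 0 were called from 12 to 36 hai (1 higher at an unadjusted p under 0.05, and 1 called with a pseudocount of 0.1 TPM). The median change to 72 hai was 2.42, beside 0.21 for all genes. All 6 matches of PHOT2, a phototropin that directs chloroplast movement, rose in that step, by 1.88 for BnaA03g09900D to 2.78 for BnaC03g12530D, and 0 of 6 were called in the step before (3 higher at an unadjusted p under 0.05, and 2 called with a pseudocount of 0.1 TPM). Both NDHN matches and PHOT2 matches such as BnaC03g12530D passed the minimum only with the 72-hai libraries. A high level at 72 hai was thus built into their selection. At 36 hai the NDHN matches averaged 0.610 and 0.673 TPM and BnaC03g12530D 0.607 TPM. With 1 TPM added, such levels cannot give a change beyond 1 in the step before. Other list genes as faint before 72 hai share this limit.

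Many genes of the plastid's own gene expression rose in both late steps. Of 18, 13 rose from 12 to 36 hai and 14 from 36 to 72 hai, with median changes of 1.98 and 1.72. They include plastid ribosomal proteins and CIA2, a nuclear regulator of genes for plastid protein import and translation in Arabidopsis. The CIA2 match BnaA02g08300D rose by 2.96 in the later step, whereas BnaC09g02460D, a match of PRDA1, which belongs to the plastid transcription machinery, changed by 0.58 and was not called. Thylakoid assembly genes were also divided, with 7 of 14 rising in the earlier step and 10 in the later one. Only 6 rose in the later step when C032 was left out, and 7 with median-of-ratios scaling or with coding genes rescaled. In this list, 4 of 5 matches of LIL3:2, a light-harvesting-like protein of chlorophyll synthesis, rose to 72 hai, and BnaAnng07140D rose by 2.22. The HCF106 match BnaAnng24940D, part of the thylakoid protein translocation machinery, changed by 0.15.

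Pigment and isoprenoid genes rose in 12 of 13 cases from 36 to 72 hai and in 5 of 13 from 12 to 36 hai. The count of 12 fell to as low as 9 when an accession was left out. LUT2, the lycopene epsilon-cyclase of lutein synthesis, had the match with the largest change, BnaC03g13170D at 2.62, and OR, a regulator of carotenoid accumulation, the smallest, BnaC09g05380D at 0.88. In carbon fixation and photorespiration 9 of 13 genes tested rose in the later step and 4 in the earlier one. The NADP-MDH match BnaA10g11990D, an enzyme of malate export from the chloroplast, rose by 2.85, and BnaC09g06300D, a match of the plastid dicarboxylate transporter DIT2.1, changed by -0.38. Both RBCS1A matches, which encode the small subunit of Rubisco, were too faint to be tested: BnaC02g17140D had 0.350 ± 0.606 TPM at 72 hai and 0.584 ± 0.298 TPM at 36 hai, and BnaC02g17150D had 0.376 ± 0.384 TPM and 0.833 ± 0.426 TPM at the same times (SD, n = 3 each).

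**Figure D4:**
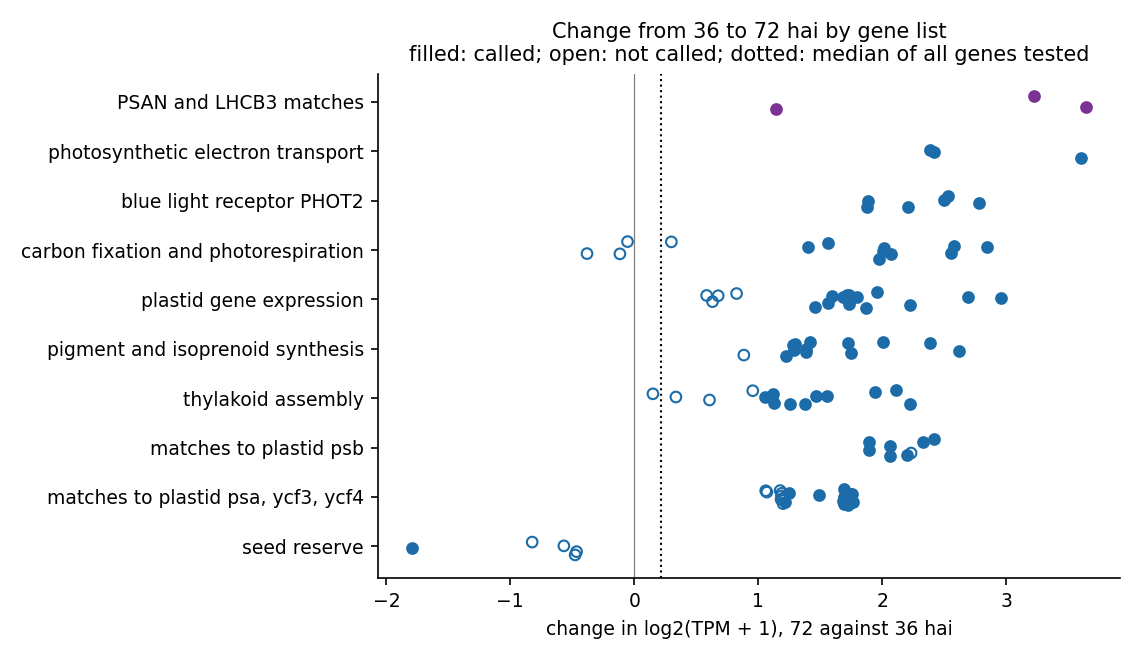
Change in log2(TPM + 1) at 72 against 36 hai of each gene tested, by list. Filled points were called, open points were not, vertical scatter within a list has no meaning, and the dotted line is the median of all genes tested, 0.21. PSAN at 3.65 and BnaC09g30700D at 3.22 stand at the upper end with FNR1 at 3.61, and BnaC02g44590D at 1.15 lies among the lower values. Adding 1 TPM understates the change of faint genes such as BnaC02g44590D.

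Nuclear scaffolds also hold rows that match the plastid genes for photosystem cores, among them psaA of photosystem I and psbB of photosystem II, whose products work beside PSAN and LHCB3. Rows that match the same plastid gene may be near-identical to one another and to the plastid genome, which was not checked by sequence. Their reads could then be split, and their counts are uncertain. Of 25 rows matching photosystem I core or assembly genes, 17 rose from 36 to 72 hai and 0 from 12 to 36 hai (0 higher at an unadjusted p under 0.05). The count of 17 fell to 10 with median-of-ratios scaling or without the 12-hai libraries, 11 with coding genes rescaled, 6 without C129, 7 without C032 and 0 without the accession term. Of 8 rows matching photosystem II genes, 7 rose in the later step and 1 in the earlier one, which became 0 without C033 and 2 without C032. The largest change was 2.42 for the psbB match BnaA06g19430D and, among photosystem I rows, 1.76 for the psaA match BnaA05g00900D, and the smallest were 1.89 for the psbE match BnaC01g21750D and 1.06 for the psaI match BnaA10g14020D. In C129, where PSAN RNA was highest at 72 hai, the median photosystem I row had 65.9 TPM at 72 hai, below the 217 TPM of C033 and the 161 TPM of C032.

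Seed reserve transcripts took the opposite course. Of 5 genes tested, 4 fell from 12 to 36 hai, where 14% of all genes tested did. From 36 to 72 hai 1 of 5 fell, where 4.82% of all genes tested did. In that step the napin match BnaA01g17200D changed by -1.79 and BnaC01g19320D by -0.47. Over the whole course 4 of 5 fell, where 10.4% of all genes tested did.

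The genes whose levels were most like those of the 3 genes over the 15 libraries, by Pearson correlation of log2(TPM + 1), carry no annotation in the sources used here. They are given as a description, since the 15 libraries share accessions and time points and 3 of them, at 72 hai, set much of each value. Closest to PSAN were BnaC05g36760D (r = 0.998, Spearman's rho 0.992), BnaC09g41630D (0.998, rho 0.957), BnaC08g09180D (0.998, rho 0.913), BnaC02g20370D (0.998, rho 0.957) and BnaC05g50540D (0.997, rho 0.957). Their mean levels at 72 hai ranged from 3.75 TPM for BnaC09g41630D to 57.2 TPM for BnaC05g50540D, and all 5 were at or near 0 up to 12 hai. Closest to BnaC09g30700D were BnaC04g10780D (r = 0.987, rho 0.807), BnaA10g07350D (0.981, rho 0.788), BnaA06g17350D (0.980, rho 0.860), BnaA06g10520D (0.980, rho 0.736) and BnaC05g12070D (0.977, rho 0.846). Closest to BnaC02g44590D were BnaC01g01580D (r = 0.980, rho 0.879), BnaA01g11240D (0.979, rho 0.831), BnaC09g48250D (0.977, rho 0.897), BnaCnng62130D (0.977, rho 0.887) and BnaA03g06450D (0.976, rho 0.811). Neither LHCB3 copy was among the closest genes of the other. The copies had r = 0.848 (rho 0.363) with each other, and PSAN had r = 0.903 (rho 0.511) with BnaC09g30700D and r = 0.935 (rho 0.488) with BnaC02g44590D.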

How the data were processed

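RNA of whole seeds and seedlings was sequenced from TruSeq libraries as 100-bp paired reads. After adapter removal the authors mapped reads to the Chalhoub et al. assembly with HISAT and quantified genes with StringTie. The versions are not given in the sources used here. Coverage, as deposited by the authors, is the mean read depth of a gene. TPM, as deposited by the authors, was computed by StringTie over 101040 coding and 4236 non-coding genes, and the non-coding ones were left out. Read equivalents are coverage times length over 100 bases. They are not whole counts, no interval was computed from them, and the floor of 3 reads covers counting error only.

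Members and lists were chosen with earlier results of these data known. Groups came from the labels. The test was limma (version 3.58.1, R 4.3.3) with trend and robust options, time and accession as terms, pseudocount 1 TPM. In the comparisons of times, the accession term takes out steady differences between accessions. The limma p-values measure how far accessions deviate from a shared time course, and a change particular to 1 accession counts as noise. For each gene this spread is pooled over all 15 libraries and serves every step, with the 8 libraries of PSAN at 0 included. In the comparisons of accessions the time points stand in as replicates, and a difference that holds only at some times counts as noise. On simulated data for 72 against 36 hai, over 46798 genes, limma recovered 98 of 100 genes changed by a log2 of 1.5 and 100 of 100 changed by 2, with 0 false calls. The changed genes were drawn from higher levels than those of the members. The simulated noise had the same spread for every gene and no differences between accessions, so that the recovery need not hold for these libraries. Descriptive steps used Python 3.11.15, numpy 2.4.6, pandas 2.3.3 and matplotlib 3.10.9.

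Named were the 3 members, the genes with the largest and smallest change at 72 against 36 hai in each list, FNR1, RBCS1A and LIL3:2 matches, and the 5 genes most like each member. The facing neighbours were chosen after the table was seen. Arabidopsis loci came from the part of the study's supplementary table at hand, and the symbols of list loci were recalled. Alternatives were pseudocounts of 0.1 and 0.01 TPM, no minimum, a minimum of 5 TPM in 3 libraries, scaling by median of ratios, coding TPM rescaled to 1 total, no accession term, no trend and robust options, and leaving out each accession or time point.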

Additional observations from a re-analysis of the deposited data

Results flagged for a closer look

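The LHCB3 copy BnaC09g30700D had log2 ratios of opposite sign between accessions in the step to 36 hai. At 36 against 12 hai its log2 ratio was 1.60 in C129, with 0.792 against 0.261 TPM, and 1.41 in C032, with 0.229 against 0.0859 TPM. In C033 it was -1.93, with 0.230 against 0.877 TPM. The difference was not tested, since each accession and time has 1 library. The values rest on between 1.98 and 21.1 read equivalents. The lowest, that of C032 at 12 hai, is under the floor of 3 reads, so that the ratio of C032 is uncertain.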

How the results depend on the processing

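Of 320 comparisons of the members' 24 fitted changes with an alternative setting, 311 kept their call, 9 gained one and 0 lost one. The rise at 72 against 36 hai ranged from 3.44 to 4.90 for PSAN, 2.64 to 5.05 for BnaC09g30700D and 1.02 to 4.29 for BnaC02g44590D, with limma adjusted p up to 0.0033, 0.00023 and 0.015. Selection through high levels at 72 hai limits these p-values too, most for BnaC02g44590D. At least 5 TPM in at least 3 libraries and median-of-ratios scaling gave no value for BnaC02g44590D, which fell below the minimum in both settings. Its rise was thus not tested with that scaling. PSAN at 36 against 12 hai was called with a pseudocount of 0.1 (3.07) or 0.01 TPM (6.19) with coding genes rescaled (1.03) and without C032 (1.07), and ranged from 0.55 to 1.07 when an accession was left out. C033 against C032 was called for BnaC09g30700D with a pseudocount of 0.1 (1.65) or 0.01 TPM (1.91), median-of-ratios scaling (1.06), coding genes rescaled (1.11) and without 36 hai (1.15). The copy balance of LHCB3, 0.83, was 0.57 with a pseudocount of 0.1 TPM, 0.45 with 0.01 TPM and 0.66 with 0 and 2 hai alone as early times, and ranged from 0.59 to 1.02 when an accession was left out, the highest without C033. Without the replicate block (accession) no member's call changed. Counts of all genes differed by over 1.5 times as follows. At least 5 TPM gave 5722 risen genes instead of 9088 at 72 against 36 hai, 13861 instead of 22289 at 72 against 0 hai, 592 lower in C129 than C033 instead of 894 and 884 lower in C129 than C032 instead of 1344. Median-of-ratios scaling gave 2719 risen instead of 5875 and 2574 fallen instead of 1109 at 12 against 2 hai, 9211 fallen instead of 5556 at 72 against 0 hai, 972 higher in C129 than C033 instead of 2272 and 1389 lower instead of 894, and 1469 higher in C129 than C032 instead of 2377. Rescaling coding genes gave 4043 fallen instead of 2567 at 72 against 36 hai. Pseudocounts of 0.1 and 0.01 TPM gave 10891 and 10422 risen genes instead of 5875 at 12 against 2 hai, 4976 and 5003 higher in C129 than C033 instead of 2272, 4583 and 4455 higher in C129 than C032 instead of 2377, and, in C033 against C032, 1941 and 1862 higher instead of 1219 and 2778 and 2647 lower instead of 1671. At 2 against 0 hai the count of 1 risen gene varied between 0 and 85 and that of 0 fallen genes between 0 and 1. No accession term, in the fits by time, or no time term, in the fits by accession, gave 1065 higher and 474 lower in C129 than C033, 1292 higher and 730 lower in C129 than C032, and 777 higher and 935 lower in C033 than C032. Pigment genes that rose at 36 against 12 hai numbered 8 with a pseudocount of 0.1 TPM instead of 5, and PHOT2 matches 2 instead of 0. The cause of these shifts was not tested. Depth limits statements on the members before 72 hai, where many values rest on under 20 reads.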
